A study of Mus musculus with 24 samples.

Results

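Introns longer than 10 kilobases (kb) were examined in poly(A)+ RNA of mouse stem cells and of their neural derivatives at 4 stages. The splicing table listed 160806 introns, of which 14264 were longer than 10 kb, and 3708 of these had sufficient coverage in all 24 samples. The 3692 introns whose mean percent intron retention (PIR) in wild-type (WT) embryonic stem cells (ESCs) was below 20% were kept, and 16 were left out for a higher value. They made up 2.30% of all introns and 5.30% of the 69602 introns covered in all samples. WT ESC retention was thus used to choose the introns, so every retention value that involves WT ESCs is a description and was not tested. PIR is the share of reads at an intron that run from an exon into the intron, averaged over its upstream and downstream ends, against reads that join the exons.

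The stages were ESCs, neural progenitors (NPCs) on day 7, later progenitors that carry polysialylated NCAM on their surface (PSA-NCAM+) on day 10, and neurons replated at day 7 and collected 14 days later. At each stage 3 samples were WT, and 3 were slow/slow, with both alleles of Polr2a, the gene of the largest subunit of RNA polymerase II (RNAPII), changed from arginine to histidine at a single residue. Both genotypes derived from E14 ESCs, an established mouse line, and the number of slow/slow clones is not given in the sources used here. WT cells were plated for differentiation at 10000 cells per cm2 and slow/slow cells at 30000 per cm2 for NPCs and PSA-NCAM+ cells, so at these stages genotype and plating density cannot be told apart. Neurons were replated from day 7 cultures, whose first plating density is not given for these samples. A density difference before replating cannot be told apart from genotype there. The replicates came from 3 independent differentiation experiments.

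Introns are removed by the spliceosome, usually while RNAPII is still transcribing the gene, and the polymerase has to cross the whole of a long intron before the downstream splice site exists. An intron that stays in poly(A)+ RNA is called retained, and retained transcripts are often held in the nucleus or degraded. Reads from an exon into an intron can also come from transcripts that end inside the intron, which carry only its upstream end, or from those that begin inside it, which carry only its downstream end. A slow RNAPII takes longest over the longest introns, and the comparisons ask how retention of these introns differed between stages and genotypes.

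Libraries held 32974432 to 104466886 gene counts. Both libraries of replicate 1 in PSA-NCAM+ cells stood apart, with higher retention than the other 2 of their group in each of 3 length classes, so results for that stage are given with and without them. Polr2a RNA was 717 ± 26.3 CPM (counts scaled to library size, SD over 3 samples) in WT ESCs, 707 ± 49.3 in the mutant ESCs, 323 ± 13.6 in WT neurons and 168 ± 8.68 in slow/slow neurons, and these counts do not show the substitution itself. The pluripotency gene Pou5f1 was at 1760 ± 187 CPM in WT ESCs, 639 ± 20 in WT NPCs and 82.8 ± 15 in WT neurons, so NPC samples still held much of it. The neuronal gene Tubb3 was 928 ± 46.8 CPM in WT and 1190 ± 95.1 in slow/slow neurons and 126 ± 81.3 in slow/slow PSA-NCAM+ cells. Rbfox3, a marker of mature neurons, was 36.6 ± 3.04 CPM in WT and 19.7 ± 1.30 in slow/slow neurons. The summed level of 4 glial markers ranged from 25.9 to 35.7 CPM in WT neurons and from 11 to 13.3 in slow/slow neurons, with Gfap and Olig2 under 1 CPM in the latter. The sum of the mesodermal markers T and Acta2 was 121 to 136 CPM in WT and 16.7 to 20.3 in slow/slow neurons. In NPCs 5 ESC markers summed to 1890 to 1960 CPM in WT and 1110 to 1230 in slow/slow samples. Pou5f1 among them went the other way, with 639 ± 20 CPM in WT and 736 ± 48.2 in slow/slow NPCs. The sum of 4 neuronal markers was 27.4 to 28.1 CPM in WT and 104 to 121 in slow/slow NPCs. Of these, Tubb3 alone was 15.8 ± 0.722 CPM in WT and 96.3 ± 8.56 in slow/slow NPCs. Rbfox3 and Snap25 were under 1 CPM in NPCs of both genotypes. Of the progenitor markers Nes, Pax6 and Sox2, Pax6 was under 1 CPM in ESCs only. Their sum was 399 to 406 CPM in WT ESCs but 272 to 288 in WT and 334 to 361 in slow/slow NPCs. At the PSA-NCAM+ stage it was 194 to 253 in WT and 444 to 547 in slow/slow cells. WT PSA-NCAM+ cells also held ESC markers at 1300 to 1780 CPM, mesodermal markers at 233 to 293 and neuronal markers at 21.4 to 34. The part of cell composition in the results was not tested.

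The exon junctions of 9 introns on which the results turn are shown first. Each run gives the last 15 bases of the upstream exon in lower case and the first 15 of the downstream exon in capitals, 5′ to 3′ in the direction of the gene, so the intron lies at the change of case. Reads over these 30 bases count as spliced. The sequences are from GENCODE vM21 transcripts of the GRCm38 assembly.
Mtf1: acgaaacggaaagaaGTAAAGCGGTACCAG
1810013L24Rik: ccatagctctgcatgGTCTTAGTGGTGCAA
Btd: tcctatgcgaagcagATTTATGGTCTGCAT
Luc7l2: gcacctctcgggacgGAGATACTACTCGTC
Mtf2: aagtgaccgaatgagAGACTCTACAGGAGC
Copg2: aagatcctacagcagTTGCAGGCACCTTTA
Atxn10: atgacaacaacccctTTATGATGCAGTGGG
Dera: ggggcacagagctcgATCTTAGCTGGATCT
Ssu72: gaaagacaaagaactCTATACACAAAATGG
The upstream exon ended in AG at 55.5% of the long introns, against 57.5% of introns of 1 to 10 kb and 56.0% of introns of 1 kb or less. The downstream exon began with G at 48.9%, 49.0% and 50.4% of them. The exon letters next to long introns were therefore close in composition to those next to shorter ones.

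The long introns lay in 2173 host genes. A single long intron was found in 1396 genes and 2 or more in 777, with up to 12 in a gene. Their median length was 17396.5 bases and their range 10001 to 283122, with 2180 introns of 10 to 20 kb, 1192 of 20 to 50 kb, 263 of 50 to 100 kb and 57 above 100 kb. The GENCODE annotation matched 3628 of them (98.3%) by gene, strand and exact length. Of these, 1139 (31.4%) were the first intron of their transcript, compared with 7.78% of the 33121 matched introns of 1 to 10 kb and 4.09% of the 30286 of 1 kb or less. The median position was intron 3 for long introns, 7 for those of 1 to 10 kb and 8 for the shortest. Introns of the 5′ untranslated region made up 10.5% of the long introns (382), 2.49% of introns of 1 to 10 kb and 1.32% of the shortest, and the rest were almost entirely within coding sequence (89.3%).

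Long introns were seldom retained. Their median PIR, averaged over all 24 samples, was 0.236%, below 0.392% for the 33555 introns of 1 to 10 kb and 0.597% for the 31630 of 1 kb or less that met the same limits on coverage and on WT ESC retention. The mean was below 1% for 3121 of the long introns (84.5%), and 79 (2.14%) were listed at 0 in all samples. A group mean of 10% or more at any stage was found for 76 long introns (2.06%), compared with 3.54% and 6.97% of the shorter classes, and a group mean of 20% or more for 18. Across the 3692 introns length and mean PIR had a Spearman correlation of -0.13, given as a description of introns that share libraries and host genes. The median number of reads per long intron was 58 in the shallowest and 220 in the deepest sample, so a value of 0 at the median intron allows a PIR of up to 5.17% and 1.36%, a limit of 3 counts that covers counting error only.

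Mean PIR over the long introns was 0.986%, 0.896% and 0.696% in the 3 WT ESC samples and 0.775%, 0.725% and 0.769% in the slow/slow ESC samples. In NPCs it was 0.757%, 0.804% and 0.797% in WT and 0.637%, 0.666% and 0.734% in slow/slow samples. The 3 slow/slow NPC samples all lay below the 3 WT samples. In PSA-NCAM+ cells the means were 1.37%, 0.513% and 0.578% in WT and 0.877%, 0.492% and 0.453% in slow/slow samples, overlapping between the genotypes, though slow/slow was the lower in each of the 3 same-numbered pairs. In neurons they were 0.480%, 0.417% and 0.406% in WT and 0.515%, 0.438% and 0.457% in slow/slow samples, which overlapped as well. Neurons had the lowest values among WT cells, and long introns were below those of 1 to 10 kb in each of the 24 samples.

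**Figure D1:**
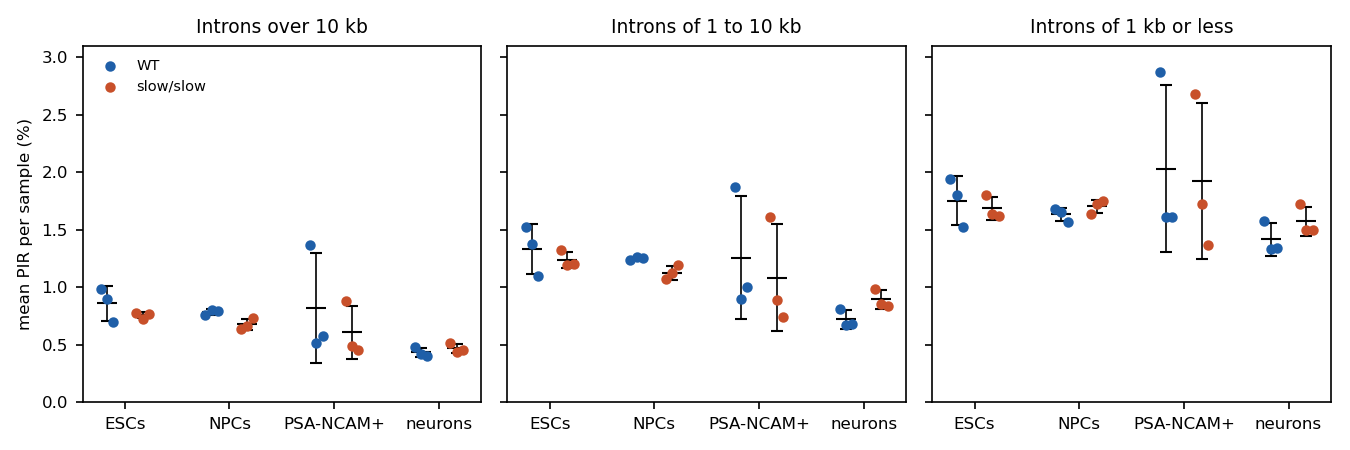
Mean PIR (%) over the introns of each length class, 1 point per sample, by stage and genotype, with a bar at the group mean and the SD of 3 samples. Long introns lay between 0.406% and 1.37%, and the 2 replicate 1 libraries of PSA-NCAM+ cells were the highest of their groups in all 3 panels.

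Introns on either side of the limits of the selection were close in the values used to choose them. Just inside the retention limit were introns of Luc7l2, 1810013L24Rik and Mtf1, with WT ESC means of 19.4%, 19.2% and 18.9%. Just outside were introns of Lamp2 (20.1%), Tra2a (20.3%) and Mll5 (21.5%). Their means over all 24 samples were 20.1%, 24.6% and 27.8% inside and 11.9%, 16.7% and 17.6% outside. At the length limit, introns of Srgap2 (10001 bases), Usp48 (10006) and Stag1 (10007) were inside, and introns of Ssu72 (10000), Bphl (9999) and Ric8b (9995) outside.

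Where long introns did show retention reads, these lay mostly at a single end of the intron. Of the 72 long introns with a mean PIR of 5% or more, 29 had at least 90% of their exon-intron reads at the upstream end and 18 at least 90% at the downstream end, 65.3% in all. The same held for 12.1% of 1498 introns of 1 to 10 kb and for 4.40% of 2907 introns of 1 kb or less at that level. By the balance test of vast-tools, which compares the 2 ends with each other and also takes reads from the middle of the intron, 2997 of the 3692 long introns (81.2%) passed in all samples, most of them with few retention reads. Of the 72, only 3 passed in all samples, and the highest group mean of any intron that did so was 13.0%. A high PIR of a long intron therefore did not in general rest on reads from both of its ends.

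The balance of the ends also moved with stage. In WT NPCs the long introns had 0.408, 0.426 and 0.462 upstream and 0.574, 0.629 and 0.574 downstream junction reads per 100 exon-exon reads. In slow/slow NPCs there were 0.477, 0.512 and 0.575 upstream and 0.429, 0.448 and 0.479 downstream reads per 100. The downstream end was thus the higher in all 3 WT NPC samples and the upstream end in all 3 slow/slow samples, and neither end overlapped between the genotypes. In WT neurons the upstream values were 0.381, 0.342 and 0.346 and the downstream values 0.218, 0.181 and 0.181. In slow/slow neurons the upstream values were 0.394, 0.383 and 0.403 and the downstream values 0.346, 0.253 and 0.255. In neurons the upstream end was the higher in each sample, and all slow/slow samples lay above all WT samples at both ends. The genotype order was not particular to long introns. For introns of 1 to 10 kb in neurons, upstream values were 0.587 to 0.671 in slow/slow and 0.435 to 0.517 in WT samples. Downstream values were 0.689 to 0.838 and 0.478 to 0.590. In NPCs their downstream values were 0.894 to 0.952 in slow/slow and 1.01 to 1.08 in WT samples, while the upstream values overlapped. These sums over introns were not tested, and introns with many reads weigh most in them.

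**Figure D2:**
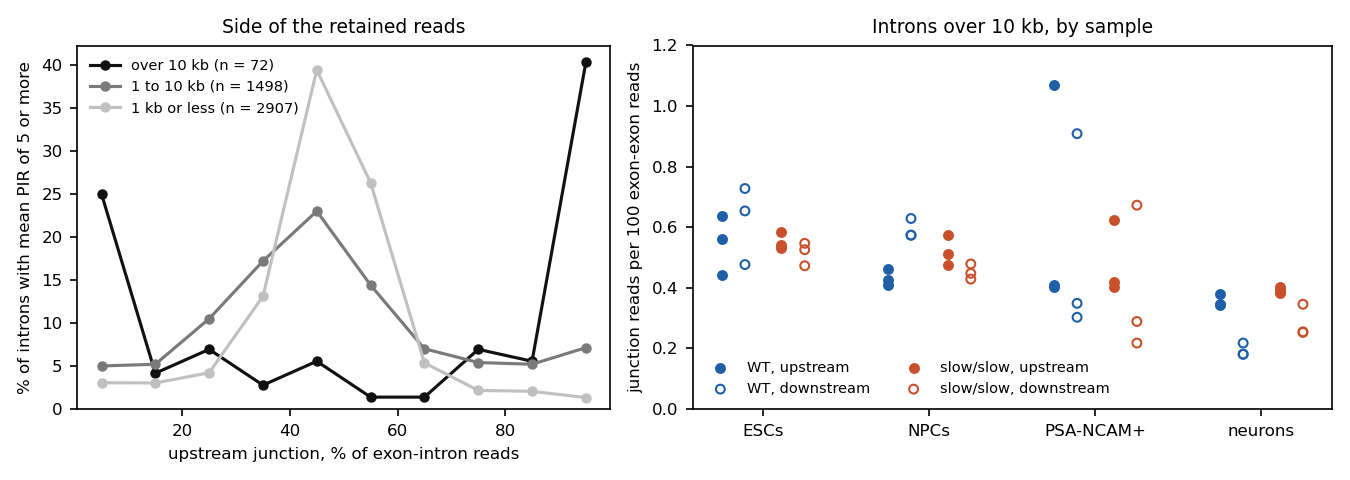
Left, the share (%) of introns with a mean PIR of 5% or more by the percent of their exon-intron reads at the upstream end, in steps of 10 points, for 3 length classes. Right, upstream (filled) and downstream (open) junction reads per 100 exon-exon reads over the long introns, 1 point per sample. Long introns gathered at both extremes of the left panel (25% in the lowest and 40.3% in the highest step), while shorter introns peaked near the middle.

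The 5 long introns with the highest mean PIR lay in Mtf1 (27.8%), 1810013L24Rik (24.6%), Btd (23.7%), Tbccd1 (22.5%) and Luc7l2 (20.1%). All 5 were one-sided. The Mtf1 intron (chr4:124482360-124497448, plus strand, mm9, intron 3 of 11, coding) had 99.7% of its exon-intron reads upstream, the 1810013L24Rik intron (chr16:8843337-8855886, plus, the last of 3) 97.8%, the Btd intron (chr14:32454322-32475255, plus, the first of 3) 98.5% and the Tbccd1 intron (chr16:22842181-22857417, minus, the first of 7, in the 5′ untranslated region) 98.9%. In the Luc7l2 intron (chr6:38501909-38520509, plus, the first of 9) only 0.478% lay upstream. Mtf1 encodes a metal-responsive transcription factor, Btd biotinidase, which recycles biotin, and Luc7l2 a protein associated with the U1 particle that recognises 5′ splice sites.

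The PIR of the Luc7l2 intron, from reads at its downstream end, separated WT NPCs from every other group. PIR was 60.7%, 58.7% and 64.0% in WT NPCs and 14.9%, 10.8% and 9.09% in slow/slow NPCs, from 398 downstream and 0 upstream reads in WT against 102 and 0 in slow/slow samples. The other WT values were 24.5%, 21.0% and 12.8% in ESCs, 46.0%, 7.28% and 11.2% at the PSA-NCAM+ stage and, in neurons, 13.2%, 8.87% and 7.95%. The difference of -49.5 points in NPCs, with no overlap, was the largest fall among the long introns, but it missed the threshold of the test (log2 odds ratio -3.50 ± 0.90 SE, adjusted p = 0.0982, limma). PSA-NCAM+ replicate 1 was again the high sample of its group in both genotypes, with 32.6% against 4.09% and 2.65% in slow/slow cells.

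The 5 longest introns were hardly retained. They lay in 2610528E23Rik (283122 bases), Cadm1 (257465), which encodes a cell adhesion protein, Ext1 (236830), a heparan sulfate polymerase, Bcas3 (217790) and Arl15 (186913), and their PIR averaged 0.201%, 0.229%, 0.0925%, 0.166% and 1.12%. The Bcas3 intron was listed at 0 in all samples except 2 WT ESC samples (0.81% and 3.17%). The Arl15 intron reached 6.25% in WT and 4% in slow/slow PSA-NCAM+ replicate 1 and 4.55% in slow/slow NPC replicate 2, and was 0 in several other samples. The genotype difference passed the test at the NPC, PSA-NCAM+ or neuron stage for none of the 5 (limma, lowest adjusted p = 0.63, 0.243 and 0.48).

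Retention of long introns was lower in neurons than in NPCs. In WT cells the mean difference was -0.352 points and the median -0.103, and 60.0% of long introns were lower and 21.1% higher in neurons, against 65.1% and 24.6% of all 71369 introns tested. By limma, 350 long introns (9.48%) passed an adjusted p of 0.05, 56 of them higher and 294 lower in neurons, against 12.5% of all introns. The count was 213 without WT NPC replicate 2, 226 without WT NPC replicate 3 and 186 without WT neuron replicate 3, and 202 when both ends had to be balanced in every sample. In slow/slow cells 51 long introns (1.38%) passed, 9 higher and 42 lower, against 1.77% of all introns, with a mean difference of -0.209 points. Without slow/slow NPC replicate 1, 2 or 3 that count was 14, 32 and 30, without slow/slow neuron replicate 2 or 3 it was 24 and 33, and without both PSA-NCAM+ replicate 1 libraries it was 103. In slow/slow NPCs against slow/slow ESCs 6 long introns passed (0.163%), 3 in each direction, against 0.113% of all introns, and the count was 1 without slow/slow NPC replicate 1, 3 without slow/slow ESC replicate 2 and 10 without both PSA-NCAM+ replicate 1 libraries. Without slow/slow ESC replicate 1 it was again 6, but with 1 higher and 5 lower.

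Single long introns showed larger shifts with stage. The 1110021J02Rik intron (chr17:29842529-29853878, minus) had a PIR of 5.98%, 7.35% and 6.53% in WT NPCs and 43.6%, 37.3% and 37.8% in WT neurons, with only 2.34% of its exon-intron reads at the upstream end. Its log2 odds ratio of neurons to NPCs was 3.11 ± 0.31 in WT (adjusted p = 7.48e-10, limma) and 1.76 ± 0.28 in slow/slow cells (adjusted p = 6.12e-05). The Fancl intron, in the gene of the ubiquitin ligase of the Fanconi anaemia complex, rose from 11.5%, 13.8% and 14.9% in WT NPCs to 33.8%, 33.3% and 34.3% in WT neurons (log2 odds ratio 1.69 ± 0.37, adjusted p = 0.00114, limma). The Nudcd3 intron fell from 5.79%, 6.57% and 9.77% in WT NPCs to 0.60%, 0.31% and 0.20% in WT neurons (log2 odds ratio -4.15 ± 0.45, adjusted p = 4.26e-09, limma). In none of these did the 2 groups overlap.

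The median long intron differed little between the genotypes. The median difference in PIR, slow/slow minus WT, was 0.0 points in both NPCs and neurons and -0.083 points at the PSA-NCAM+ stage. In the order NPCs, PSA-NCAM+, neurons, the means were -0.107, -0.212 and 0.036, and long introns lower in slow/slow cells made up 47.1%, 61.5% and 32.4%, beside 48.5%, 59.5% and 33.3% of all introns tested. Those higher in slow/slow cells made up 37.4%, 26% and 36.6%, beside 42.4%, 33.8% and 49.8% of all introns, and the rest, 571, 462 and 1142 long introns, had equal means. Without both replicate 1 libraries the median in PSA-NCAM+ cells was 0.0. Of the long introns, 95% differed by -2.167 to 1.616 points at the NPC stage, -2.032 to 0.86 at the PSA-NCAM+ stage and -1.076 to 1.352 at the neuron stage. A difference above 5 points was found for 1.25%, 0.596% and 0.596% of long introns, against 2.89%, 1.77% and 2.21% of all introns, and one above 10 points for 16, 5 and 8 long introns. In ESCs, given only as a description, the median difference was -0.003 and the mean -0.103 points.

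The genotype difference by length class went different ways at different stages. In NPCs the slow/slow minus WT mean was -0.136 ± 0.0698 points (SD of the difference) at 10 to 20 kb and -0.0907 ± 0.0433 at 20 to 50 kb, without overlap of the samples. At 50 to 100 kb it was 0.0303 ± 0.0675 and above 100 kb 0.0490 ± 0.212, with overlap. The values stood in rising order over these 4 classes, but the last 2 were smaller than their SD. The order did not hold over all classes, since introns of 1 kb or less were at 0.07 ± 0.0804, with overlap, and those of 1 to 10 kb below 0. In ESCs, as a description, the 4 classes of long introns were at -0.126, -0.0837, -0.036 and 0.0433. In neurons the difference was 0.0550 ± 0.0640, 0.0220 ± 0.0557 and -0.0790 ± 0.0948 in the first 3 classes, with overlap, and 0.129 ± 0.0767 above 100 kb, without overlap and from 57 introns. Introns of 1 to 10 kb differed by -0.123 ± 0.0611 in NPCs and 0.174 ± 0.114 in neurons, both without overlap. In PSA-NCAM+ cells all 4 classes of long introns were lower in slow/slow cells, by -0.164 to -0.232 points, and all overlapped. Within same-numbered samples, slow/slow was lower in 3 of 3 pairs in the first 3 classes and in 2 of 3 above 100 kb.

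**Figure D3:**
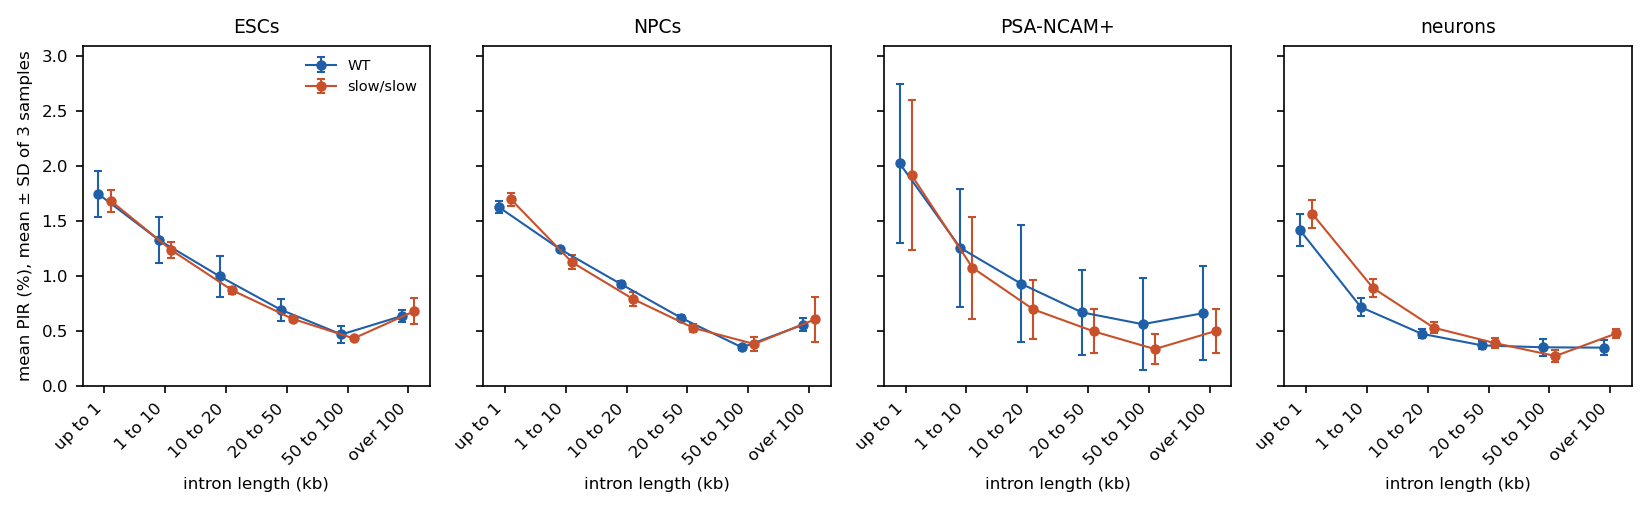
Mean PIR (%) by intron length class in WT and slow/slow cells at each stage, points and bars being the mean and SD of 3 samples. The mean was lower in each longer class up to 50 to 100 kb in every group, and higher above 100 kb than at 50 to 100 kb in all groups except WT neurons (0.353% against 0.356%), and the bars of PSA-NCAM+ cells were wide because replicate 1 stood apart.

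In NPCs 26 long introns (0.704%) differed between the genotypes at a limma adjusted p under 0.05, 12 higher and 14 lower in slow/slow cells, against 0.754% of all introns. The share was thus close to that of all introns. All 26 were without overlap between the genotypes, 14 were at least 90% one-sided and 9 passed the balance test in all 6 samples, and their median change was 4.49 points. The test itself favours introns without overlap, and these shares among all introns that passed are not given here. When only introns balanced in the compared samples were fitted, 5 passed. The count was 12 without WT NPC replicate 2 or without WT NPC replicate 3, 6, 14 and 13 without slow/slow NPC replicate 1, 2 or 3, and 64 without both PSA-NCAM+ replicate 1 libraries. By the posterior rule, modelled on the vast-tools comparison with its difference of more than 10 points and balanced ends, 0 of 3332 long introns passed, against 0.321% of all introns. Few long introns could pass it, since only 3 of the 72 with a mean PIR of 5% or more were balanced in all samples. The other introns needed coverage in the 6 samples of the stage only and had no limit on retention. The 0 is therefore not read as a difference from them. Limma gave 380 long introns (10.3%) at an unadjusted p under 0.05, against 10.3% of all introns. Without the filter on balance the posterior rule gave 11 long introns, 4 higher and 7 lower, against 0.590% of all introns.

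The largest tested rise in slow/slow NPCs was that of the Mtf1 intron. PIR was 11.3%, 16.3% and 14.0% in WT and 31.1%, 32.0% and 31.9% in slow/slow NPCs, from 74 and 125 upstream reads. The groups did not overlap (17.8 points, log2 odds ratio 1.45 ± 0.37, adjusted p = 0.0491, limma), but the call was kept in 0 of 6 fits that left out 1 NPC library. The values of this intron in neurons, 27.4%, 18.9% and 25.1% in WT and 41.4%, 30.5% and 42.1% in slow/slow cells, did not overlap either, with an adjusted p of 0.29 by limma.

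Other rises in NPCs were as one-sided. The intron of Lrp6 (chr6:134470612-134491669, minus, intron 2 of 22), the gene of a Wnt co-receptor, had 2.56%, 3.51% and 4.76% in WT and 21.3%, 21.5% and 11.8% in slow/slow NPCs, with all 13 and 86 of its exon-intron reads upstream (14.6 points, adjusted p = 0.00853, limma). The Herpud2 intron had 5.62%, 6.87% and 4.83% in WT and 18.4%, 18.5% and 19.3% in slow/slow NPCs (12.9 points, adjusted p = 0.00195). The intron of Abcc5, which encodes a membrane exporter, had 1.40%, 0.61% and 2.38% in WT and 7.01%, 13.3% and 12.9% in slow/slow NPCs, mostly from the downstream end (9.63 points, adjusted p = 0.0108). All 3 were higher in every slow/slow sample than in any WT sample. The calls were kept in 4, 5 and 2 of 6 fits without 1 NPC library. The Epb4.1l4a intron rose by 12.6 points (adjusted p = 0.0156, limma), with all of its reads downstream, and its call was kept in 3 of the 6.

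Among the falls in NPCs, the Btd intron had 46.5%, 47.7% and 38.8% in WT and 20%, 12.0% and 26.9% in slow/slow NPCs (-24.7 points, log2 odds ratio -1.76 ± 0.42, adjusted p = 0.0262, limma). The first intron of Mtf2 (chr5:108494985-108509843, plus, 14859 bases), the gene of a Polycomb-like chromatin protein, had 28.3%, 25.1% and 20.9% in WT and 1.43%, 5.51% and 4.76% in slow/slow NPCs (-20.9 points, adjusted p = 0.0384). In WT NPCs it had 14 upstream and 22 downstream reads, but it passed the balance test in 0 of 6 NPC samples. The Fancl intron had 11.5%, 13.8% and 14.9% against 6.57%, 5.51% and 6.92% (-7.04 points, adjusted p = 0.0471), and the Nudcd3 intron 5.79%, 6.57% and 9.77% against 1.71%, 0.80% and 2.05% (-5.86 points, adjusted p = 0.0249). None of the 4 overlapped between the genotypes. Their calls were kept in 1, 1, 0 and 1 of 6 fits without 1 NPC library. The intron of Atp9b, which encodes a phospholipid flippase, fell by 6.71 points (adjusted p = 0.0445, limma; kept in 0 of 6).

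Among the named NPC calls, those for introns of Ssu72, Pias2, Mbd2 and Otud5 were kept in all 6 such fits. The Ssu72 intron of 15719 bases (chr4:155089715-155105433, plus, intron 2 of 4), in the gene of a phosphatase of the RNAPII tail, had 0.26%, 0.25% and 0.21% in WT and 0.86%, 0.87% and 0.98% in slow/slow NPCs, from 47 upstream and 28 downstream reads in WT and 124 and 20 in slow/slow samples (0.663 points, log2 odds ratio 1.87 ± 0.30, adjusted p = 0.000221, limma). The intron of Pias2, the gene of a SUMO ligase, had 0%, 0% and 0.20% against 4.35%, 4.28% and 5.19% (adjusted p = 0.000139), and the intron of Mbd2, which binds methylated DNA, 0%, 0.38% and 0% against 1.52%, 2.97% and 4.71% (adjusted p = 0.000946). The intron of Otud5, the gene of a deubiquitinase, was lower in slow/slow NPCs, with 5.63%, 2.17% and 2.48% against 0.11%, 0% and 0.24% (adjusted p = 0.00158). None of these 4 overlapped between the genotypes. They were singled out after their values had been seen.

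In PSA-NCAM+ cells 15 long introns (0.406%) passed the limma test, all lower in slow/slow cells, against 0.600% of all introns. Of these, 13 were without overlap between the genotypes, 3 were at least 90% one-sided and 7 passed the balance test in all 6 samples. The median change was 1.32 points and none of the 15 exceeded 5 points. As in NPCs, the test itself favours introns without overlap, and these shares among all introns that passed are not given. Most of all introns that passed were lower as well, 336 against 92 higher. The count of 15 long introns rested on single libraries. It was 7 without WT replicate 1 (4 higher, 3 lower), 53 without WT replicate 2, 42 without WT replicate 3, 79 without slow/slow replicate 1, 3 without slow/slow replicate 2 and 7 without slow/slow replicate 3, and 0 when only the 6 samples of the stage were fitted. Without both replicate 1 libraries 11 passed, 3 higher and 8 lower. With a replicate block, which pairs the same-numbered samples of the genotypes, 21 passed, 3 higher and 18 lower. With balanced ends required 4 passed. The posterior rule called 0 of 3171 long introns, against 0.0826% of all introns, and 0 without the balance filter, against 0.165%, and limma gave 491 (13.3%) at an unadjusted p under 0.05, against 13.6% of all introns. The limits of the posterior rule given for NPCs hold here too, so these 0 counts are not read as a difference.

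The call for the first intron of Otud5 (chrX:7419837-7433429, plus, 13593 bases) was kept in all 6 fits without 1 PSA-NCAM+ library. It had a PIR of 1.49%, 0.35% and 5.05% in WT and 0% in all 3 slow/slow samples, which together held 1171 exon-exon reads (-2.30 points, adjusted p = 0.000411, limma). The genotypes did not overlap. The introns of Atf2 (-2.97 points), a stress-responsive transcription factor, Arl13b (-2.74), a GTPase of cilia, and Rnf216 (-2.03), a ubiquitin ligase, also fell, with limma adjusted p of 0.0193, 0.0147 and 0.0491, and were kept in 3, 3 and 2 of the 6 fits. The highest rises by p, in introns of Rqcd1 (1.61 points), Pias2 (0.967), Pros1 (4.17), Bin3 (0.923) and Mbd2 (1.71), did not pass (adjusted p from 0.0683 to 0.1, limma).

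In neurons 25 long introns (0.677%) passed the limma test, 16 higher and 9 lower in slow/slow cells, against 1.59% of all introns. All 25 were without overlap, 17 were at least 90% one-sided and 9 passed the balance test in the 6 samples, and 7 passed when only balanced introns were fitted. As in NPCs, the test itself favours introns without overlap, and the shares among all introns that passed are not given. The count was 14 and 15 without WT neuron replicate 2 or 3, 9, 11 and 16 without slow/slow neuron replicate 1, 2 or 3, 2 when only the 6 neuron samples were fitted and 42 without both PSA-NCAM+ replicate 1 libraries. The posterior rule called 0 of 3395 long introns, against 0.260% of all introns, and 5 without the balance filter, against 0.443%, while limma gave 210 (5.69%) at an unadjusted p under 0.05, against 10.8% of all introns. As in NPCs, few long introns could pass the posterior rule, so its 0 is not read as a difference.

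The strongest call was the intron of Copg2 (chr6:30700636-30759558, minus, 58923 bases, intron 20 of 23), the gene of a coatomer subunit that coats transport vesicles. PIR was 14.6%, 11.1% and 10.7% in WT neurons and 0% in all 3 slow/slow neuron samples, from 285 downstream and 2 upstream reads against 0 and 0, beside 1064 and 1399 exon-exon reads. It was at most 0.93% in every other sample. The difference was -12.1 points (log2 odds ratio -6.51 ± 0.45, adjusted p = 2.54e-13, limma), and the call was kept in all 6 fits without 1 neuron library. Its host RNA was 0.70 higher on the log2 scale in slow/slow neurons (adjusted p = 2.39e-09, edgeR).

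The intron of Atxn10 (chr15:85268596-85292709, plus, 24114 bases, intron 10 of 11), the gene of ataxin 10, showed the opposite pattern. PIR was 0.14%, 0.12% and 0.12% in WT and 3.90%, 3.55% and 4.47% in slow/slow neurons, from 17 and 396 downstream reads. In the 18 samples of the other stages it did not exceed 0.15%. The difference was 3.85 points (log2 odds ratio 4.75 ± 0.49, adjusted p = 1.53e-08, limma). Like Copg2, it separated a single group of 3 libraries from all others and lay almost wholly at the downstream end.

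The first intron of Dera (chr6:137703160-137726644, plus, 23485 bases), the gene of deoxyribose-phosphate aldolase, had a higher PIR in WT neurons, from reads at its upstream end. PIR was 3.83%, 3.12% and 2.93% in WT and 0%, 0.16% and 0% in slow/slow neurons (-3.24 points, log2 odds ratio -3.75 ± 0.65, adjusted p = 0.000482, limma), with 31 and 1 upstream reads. The intron of Ythdf3, which encodes a reader of methylated adenosine in RNA, had 0.91%, 1.47% and 1.56% in WT and 7.75%, 6.08% and 11% in slow/slow neurons (6.95 points, log2 odds ratio 2.32 ± 0.47, adjusted p = 0.00328). Both were without overlap and were kept in all 6 fits.

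The largest rise in neurons was that of the Btd intron, with 16.3%, 11.3% and 6.51% in WT and 34.8%, 24% and 22.6% in slow/slow neurons (15.8 points, log2 odds ratio 1.69 ± 0.37, adjusted p = 0.00769, limma). The 1810013L24Rik intron had 23.0%, 17.0% and 17.0% in WT and 34.1%, 30.1% and 32.0% in slow/slow neurons (13.1 points, adjusted p = 0.0266). The second intron of Chd2, the gene of a chromatin remodeller, had 0% in all WT and 5.41%, 8.01% and 5.90% in slow/slow neurons, from 5 upstream reads in all (adjusted p = 0.016). The Bcar3 intron had 0% in all WT and 10.5%, 4.50% and 2.86% in slow/slow neurons, from 12 downstream reads (adjusted p = 0.0418). None of the 4 overlapped. They were kept in 4, 1, 3 and 0 of 6 fits. Falls were also called for introns of Lmf1 (-5.91 points, adjusted p = 0.0373), Rsf1 (-3.83, 0.0138) and Epb4.1l4a (-3.17, 0.00997) by limma, and were kept in 0, 3 and 5 of 6 fits.

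**Figure D4:**
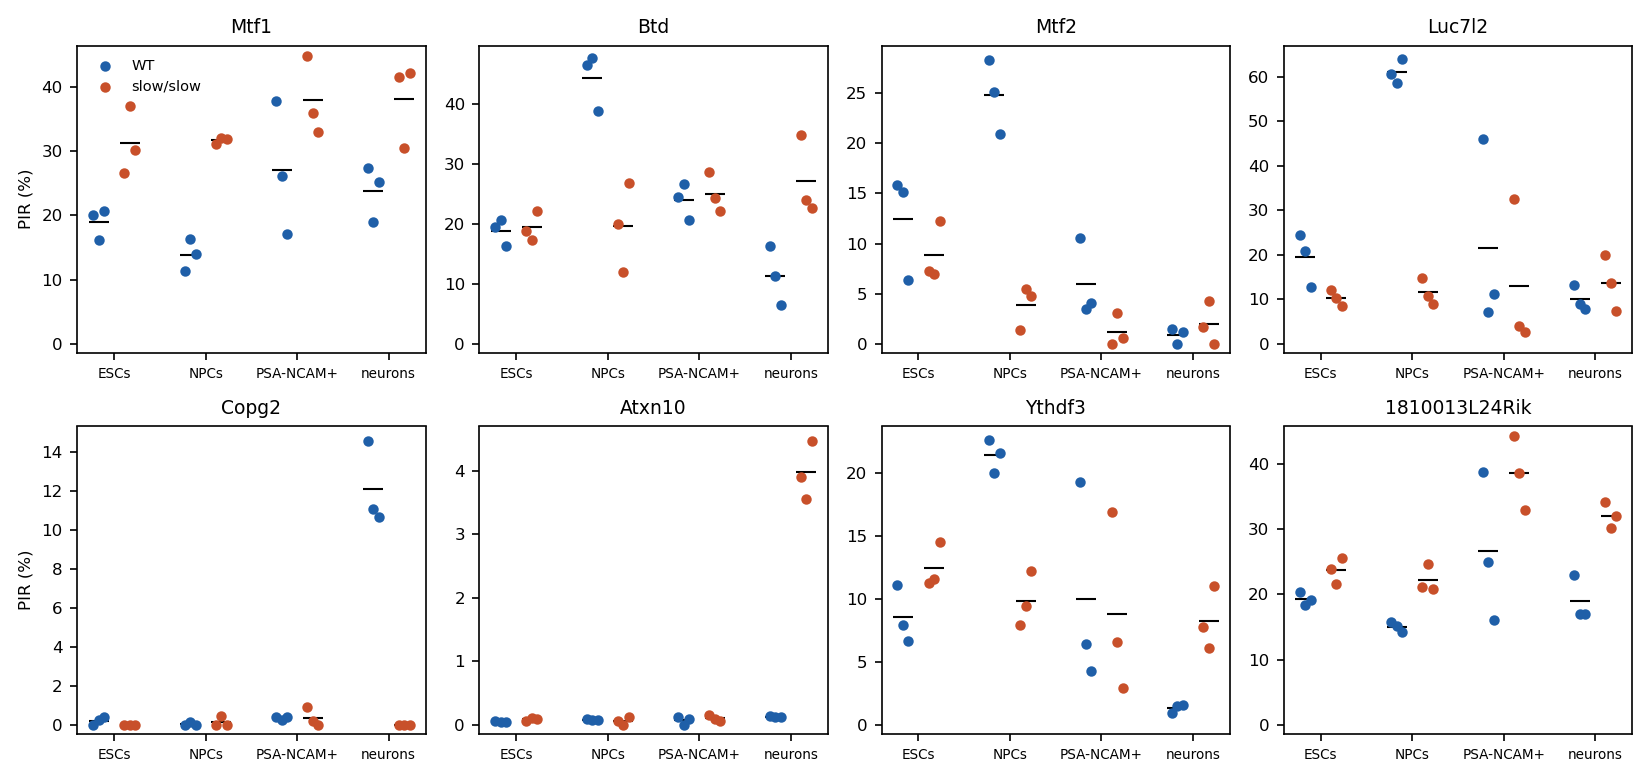
PIR (%) of 8 long introns in each sample, by stage and genotype, with a bar at the group mean. Points are single samples and each panel has its own scale. The Copg2 intron was above 10% only in WT neurons and the Atxn10 intron above 1% only in slow/slow neurons.

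The genotype effect itself differed between neurons and NPCs for 15 long introns (0.406%, limma interaction, adjusted p under 0.05), with a log2 odds ratio of slow/slow to WT that was higher in neurons than in NPCs for 7 and lower for 8, against 0.848% of all introns. The largest differences, neurons minus NPCs, were 5.30 ± 0.74 (log2 odds ratio) for Atxn10 (adjusted p = 2.52e-05), 3.84 ± 0.99 for Mtf2 (0.0451) and 3.69 ± 0.76 for Ythdf3 (0.00622), and -6.75 ± 0.71 for Copg2 (1.56e-07), -4.44 ± 0.71 for Epb4.1l4a (0.000218) and -4.12 ± 0.73 for Gpr107 (0.00107). The Btd intron, lower in slow/slow NPCs and higher in slow/slow neurons, had a difference of 3.44 ± 0.56 (adjusted p = 0.000264, limma). The Gpr107 intron had 1.01%, 1.02% and 0.81% in WT and 6.15%, 4.84% and 5.15% in slow/slow NPCs, but 2.26%, 1.15% and 0.93% in WT and 0%, 0% and 0.79% in slow/slow neurons, so that its genotypes were in opposite order at the 2 stages without overlap. The count was 8 and 9 without WT NPC replicate 2 or 3, 6 and 9 without slow/slow NPC replicate 1 or 3, 9 and 8 without WT neuron replicate 2 or 3, and 37 without both PSA-NCAM+ replicate 1 libraries. With balanced ends required in the 12 samples, none passed.

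Long introns were also grouped by 5 lists of host genes, with the share of all introns called as the measure beside them. In NPCs 0.444% of all introns rose and 0.310% fell in slow/slow cells, in PSA-NCAM+ cells 0.471% fell, in neurons 1.30% rose, and 10.3% were lower in WT neurons than in WT NPCs and 1.21% in slow/slow. Among 64 long introns of 36 chromatin regulators, 1 was higher in slow/slow neurons (Chd2), none passed in NPCs or PSA-NCAM+ cells, and 6 were lower in WT neurons than in WT NPCs, in Arid1a, Arid2, Atrx, Kdm2a, Kdm2b and Smarcc1. Among 33 introns of 20 genes of RNA processing, 2 fell in slow/slow NPCs and 1 in slow/slow PSA-NCAM+ cells (Rbm25), and 5 were lower in WT neurons than NPCs. Among 70 introns of 31 signalling and small GTPase regulators, 1 fell in slow/slow NPCs (Ptprf), 1 fell in slow/slow PSA-NCAM+ cells and 1 rose in slow/slow neurons, and 4 were lower in WT neurons than NPCs. Among 66 introns of 29 genes of the cytoskeleton and adhesion, 1 rose in slow/slow neurons (Ank3), and 6 were lower in neurons than NPCs in WT and 2 in slow/slow cells. Of 10 introns in 4 synaptic genes, 1 fell in slow/slow PSA-NCAM+ cells (Erc1) and 1 was lower in WT neurons than NPCs (Lphn1). The median difference of each list in NPCs and neurons lay between -0.097 and 0.067 points, beside 0.0 over all introns.

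The RNA of the host genes was compared between the genotypes as well. The expression table held 2152 of the 2173 host symbols, and 2161 of its genes under those symbols passed the filter on low counts. By edgeR, the number that changed between the genotypes was 985 in ESCs (45.6%), then 1328 at the NPC stage (61.5%), 1303 at the PSA-NCAM+ stage (60.3%) and 1217 in neurons (56.3%), against 40.4%, 56.7%, 56.7% and 51.9% of all genes tested. Host genes had to have an intron covered in all 24 samples, a limit not set on the other genes. Its part in these shares was not tested. Changes above 2-fold were found for 65, 140, 154 and 95 of the host genes. The share of all genes at that limit is not given here, so these counts do not compare hosts with other genes. The changed host genes were higher in slow/slow cells in 56.1%, 59.4% and 69.0% of cases at the first 3 stages and in 33.8% in neurons, where 411 rose and 806 fell, while the same share among all changed genes was 45.7%, 51.7%, 50.5% and 45.2%. The median log2 change of host genes was 0.062, 0.094, 0.152 and -0.136 at the 4 stages, beside -0.022, 0.007, -0.007 and -0.055 over all genes. Without both replicate 1 libraries 1551 host genes changed in PSA-NCAM+ cells, 1039 of them higher, again without the share of all genes beside it. In bulk RNA, fewer cells of a type and less RNA per cell cannot be told apart.

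The lists of host genes differed in their counts of changed RNA. By edgeR, 28.4% of all genes fell and 23.4% rose in slow/slow neurons. The lists hold host genes only, and of all 2161 tested hosts 806 fell and 411 rose, so falls were more common among hosts in general. Of the 29 tested hosts of the cytoskeleton and adhesion list 18 fell and 2 rose, of 36 chromatin regulators 17 fell and 3 rose, and of 31 signalling genes 15 fell and 6 rose. Of 20 genes of RNA processing 4 fell and 4 rose, and of 4 synaptic genes 1 fell and 0 rose. In NPCs 29.3% of all genes rose and 27.4% fell, and of the 2161 hosts 789 rose and 539 fell. There 18 chromatin regulators rose and 5 fell, and 10 genes of RNA processing rose and 2 fell. Of the signalling genes 10 rose and 8 fell, of the cytoskeleton and adhesion list 8 rose and 9 fell, and all 4 synaptic genes rose. Of each list at most 1 long intron passed the limma test in neurons.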

How the data were processed

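Per the study's methods, the authors sequenced poly(A)-selected RNA as 75-base paired-end reads, mapped to mm9 and processed with vast-tools. They deposited raw counts per gene, and for each intron a percent value (PIR) with quality scores and corrected reads of both exon-intron junctions and the exon-exon junction. Whether junction reads were counted by strand was not stated, so reads of transcripts on the other strand could not be told apart. The deposited group RPKM, fold changes and calls of the authors, and a second splicing table, were not used. All columns of samples were mapped, and 0 were left unused.

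Introns with at least 15 reads in all 24 samples (71369) were fitted with limma 3.58.1 (R 4.3.3) on the logit of inclusion and exclusion reads, weighted by reads, in 1 model of the 8 groups. The pseudocount averaged 0.5 and was scaled to each sample's reads, because the fixed 0.5 first planned gave depth-dependent calls on simulated data. A second rule pooled beta posteriors (probability over 0.95, difference over 10 points, balance p of at least 0.05). Gene counts were tested with edgeR 4.0.16 (filterByExpr, TMM, quasi-likelihood). Adjusted p-values are Benjamini-Hochberg over all features. Alternatives included other pseudocounts, filters, weights, normalizations, DESeq2 1.42.0 and leaving out each replicate. p-values measure the spread between these samples. Precision follows from the reads per intron.

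Introns were named as the 5 largest non-overlapping rises and falls passing limma per stage (filled by smallest p), up to 5 by the posterior rule, the 5 highest, the 5 longest, those at the limits of the selection and the 3 largest interactions per direction, with those of the gene lists that passed. Some introns that met this rule are not reported here. Introns were placed in GENCODE vM21 by gene, strand and exact length. The introns and gene lists were chosen with earlier results of these data known. Same-numbered PSA-NCAM+ samples of both genotypes deviated together (correlations 0.258, 0.110 and 0.175 over introns), so their numbers were taken to pair them. The main fit had no term for this pairing, which was added in the replicate block.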

Additional observations from a re-analysis of the deposited data

Results flagged for a closer look

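For 14 of the long introns given here the genotype effect in neurons differed from that in NPCs by a test of the difference itself (limma interaction, adjusted p under 0.05 over all introns). The values below are the effect in neurons minus that in NPCs on the scale of log2 odds ratios. The difference was positive for Atxn10 (5.30), Mtf2 (3.84), Ythdf3 (3.69), Atp9b (3.68), Ccny (3.60) and Btd (3.44). For Mtf2, Atp9b and Ccny the effect in NPCs was -3.01, -2.76 and -2.78 and in neurons 0.82, 0.93 and 0.82, so the larger effect was that in NPCs. It was negative for Copg2 (-6.75), Epb4.1l4a (-4.44), Gpr107 (-4.12), Dera (-4.11), Foxo3 (-3.60), Lmf1 (-3.09), Herpud2 (-1.76) and the 15719-base intron of Ssu72 (-1.75). For Copg2, Dera and Foxo3 the effect was 0.24, 0.36 and 1.08 in NPCs and -6.51, -3.75 and -2.52 in neurons.

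The calls for Atxn10, Btd, Copg2, Epb4.1l4a and Gpr107 were kept in all 12 fits that left out 1 NPC or neuron library, and those for Dera and Ythdf3 in 11. The others were kept in 5 (Lmf1), 3 (Foxo3, Mtf2), 2 (Ssu72), 1 (Atp9b, Ccny) and 0 (Herpud2) of 12. Most of these introns had reads at mainly 1 end. The upstream share of exon-intron reads was 5.43% for Atxn10, 0.98% for Copg2, 97.4% for Dera, 0% for Epb4.1l4a, 93.2% for Gpr107, 98.5% for Btd and 100.0% for Lmf1, while Mtf2 (47.6%) and Atp9b (50.8%) had reads at both. The part of transcripts that start or end within these introns was not tested. Foxo3, the gene of a transcription factor, had 2.05%, 3.1% and 3.80% in WT and 0%, 0.86% and 0% in slow/slow neurons in its 76914-base intron.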

How the results depend on the processing

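Counts of long introns called by limma are given in the order NPCs, PSA-NCAM+ cells and neurons, where 26, 15 and 25 passed. For the alternative fits, here and above, the share of all introns called is not given. The shifts in these counts therefore do not compare long introns with other introns. Requiring balanced ends left 5, 4 and 7, a difference over 5 points 11, 0 and 9, and introns over 20 kb 6, 2 and, in neurons, 17. Without read weights 2 passed in PSA-NCAM+ cells and 13 in neurons, and with only the 6 samples of a stage 0 and 2. The fixed pseudocount of 0.5 first planned gave 35, 298 and 114, while the scaled one used throughout was chosen after the data were seen. Leaving out 1 library gave 6 to 18, 3 to 79 and 9 to 18, and leaving out both PSA-NCAM+ replicate 1 libraries, added after the data were seen, 64, 11 and 42. The replicate block gave 40, 21 and 38. Outside PSA-NCAM+ cells same-numbered samples did not deviate together, so there the number was not taken as a pairing.

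For neurons against NPCs the balance filter left 202 in WT and 17 in slow/slow cells, the fixed pseudocount gave 1067 and 145, and leaving out libraries 186 to 468 and 14 to 103. The replicate block gave 82 in slow/slow cells. For slow/slow NPCs against ESCs the balance filter left 1, and leaving out libraries gave 1 to 10. The interaction gave 0 with balanced ends, 24 with the replicate block, 26 with the fixed pseudocount and 6 to 37 without libraries. The posterior rule gave 1 in NPCs with a difference over 5 points, 0 to 1 without 1 library, and 11 in NPCs and 5 in neurons without the balance filter. Host genes over 2-fold numbered 65 in ESCs, 140, 154 and 95, and 473 in PSA-NCAM+ cells passed when only their 6 samples were fitted. The counts of this paragraph have no share of all introns or of all genes beside them. The cause of these shifts was not tested. No called named intron reversed. Of 618 fits of named calls without a library 411 kept the call, and of 455 other fits 405 did. Low retention limits precision, since a median intron had 58 to 220 reads per sample.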
